A study of Rattus norvegicus with 6 samples.

Results

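The BCL2 family holds the genes that set the threshold of mitochondrial apoptosis, and 10 of its members were followed in grafted rat corneas: Bcl2, Bcl2l1, Mcl1, Bcl2a1, Bax, Bak1, Bid, Bcl2l11, Bbc3 and Pmaip1. Members were taken by gene symbol, and all 10 were found among the 17771 genes of the count table and passed the filter on low counts. The corneas came from Wistar recipients of an SD (Sprague-Dawley) corneal allograft and were labelled day 7. After surgery the control group received saline i.p. and the other group resveratrol i.p., each daily for 7 days. Surgery and graft were thus shared by both groups, and no ungrafted cornea and no dose are analysed here. Resveratrol is a plant polyphenol, and the comparison addresses which genes differ under it in a study on graft rejection. Each group has 3 bulk RNA-seq libraries, and total gene counts ran from 35068936 to 37460756. Whether each library is a separate animal is not stated in the labels; p-values therefore measure no more than the spread between libraries, which may be technical.

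In this family the guardians (Bcl2, Bcl2l1 encoding BCL-XL, Mcl1 and Bcl2a1 encoding A1) hold the effectors in check. The effectors, Bax and Bak1, permeabilise the outer mitochondrial membrane, which lets cytochrome c out and starts the caspases. BH3-only proteins (Bid, Bcl2l11 encoding BIM, Bbc3 encoding PUMA and Pmaip1 encoding NOXA) carry stress signals by binding guardians, effectors or both. Much of the control of the family is at the protein level, by cleavage, phosphorylation, movement and turnover, which RNA does not show. In the cornea epithelial cells are shed and replaced throughout life, and a graft adds invading leukocytes, which also use these genes.

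Upstream sequences are shown for 3 members: Bcl2a1, with the log2 fold change farthest from 0 among the members, Mcl1, which had the most counts, and Bcl2l11, a BH3-only gene. They are the 250 bases before the RefSeq start on GRCr8, read 5′ to 3′, at chr8:98596556-98596805, chr2:185907918-185908167 and chr3:135819792-135820041, all on the plus strand. The submitters' processing notes name another build, mRatBN7.2. Capitals mark motif matches on either strand.
Bcl2a1: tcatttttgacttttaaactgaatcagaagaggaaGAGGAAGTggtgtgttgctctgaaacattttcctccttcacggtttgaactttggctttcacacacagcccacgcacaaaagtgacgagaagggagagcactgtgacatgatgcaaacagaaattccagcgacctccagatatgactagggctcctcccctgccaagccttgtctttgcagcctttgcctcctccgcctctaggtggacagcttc
Mcl1: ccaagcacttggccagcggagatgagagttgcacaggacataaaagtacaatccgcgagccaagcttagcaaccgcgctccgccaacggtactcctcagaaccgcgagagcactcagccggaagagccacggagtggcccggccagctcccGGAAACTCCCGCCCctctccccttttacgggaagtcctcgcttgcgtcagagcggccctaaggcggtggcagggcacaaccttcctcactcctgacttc
Bcl2l11: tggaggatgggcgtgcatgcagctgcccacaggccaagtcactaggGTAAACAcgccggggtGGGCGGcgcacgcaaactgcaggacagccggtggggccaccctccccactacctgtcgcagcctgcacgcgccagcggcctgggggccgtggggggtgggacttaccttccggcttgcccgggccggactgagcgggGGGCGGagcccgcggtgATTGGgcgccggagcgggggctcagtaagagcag

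The Bcl2a1 window held a PU.1 motif (GAGGAAGT), 215 to 208 bases before the start, and no other motif searched. This motif was in 2.04% of the 33469 rat windows of this length, and also in those of Bcl2 and Bak1. In the Mcl1 window the NF-kB consensus, found in 6.33% of windows and also in that of Pmaip1, overlapped a GC box (GGGCGG on either strand), found in 30.5%. The Bcl2l11 window was 72.0% G or C and held a FOXO motif (GTAAACA, in 3.21% of windows), 2 GC boxes and a CCAAT box (34% of windows). TATAAA (12.9%) was found for Bcl2 alone, and TTCNNNGAA, the STAT motif (7.67%), for Bcl2l1 alone. The 8 members matched had 11 windows, since Bcl2l1 had several. Its STAT matches were the same sites seen in overlapping windows and were absent from its other windows. The p53 half-site (6.64%) and TGACGTCA, the CRE (1.59%), were in none of the windows of the 8 members matched. A match is a description of letters only.

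Levels of different genes were compared as the authors' FPKM, which divides by gene length. Mcl1 was the most abundant member, at 78.3 to 105.8 FPKM over the 6 libraries, and lay above every other member in all 6. Bax (17.1 to 26.0 FPKM) and Bak1 (18.2 to 26.7 FPKM) came next and were not separated, since Bax was higher in 3 of 6 libraries. Both lay above the remaining members in all libraries. Pmaip1 (6.73 to 14.8 FPKM), Bcl2l1 (6.29 to 10.1 FPKM) and Bcl2a1 (3.41 to 14.5 FPKM) overlapped, as did Bid (3.43 to 5.59 FPKM), Bcl2 (3.46 to 5.26 FPKM) and Bcl2l11 (2.77 to 5.31 FPKM). Bbc3 was lowest, at 2.03 to 4.14 FPKM, and lay below Bcl2l11 in 6 of 6 libraries. This order leans on the gene models behind FPKM. The length implied by counts and FPKM was 13.6 kb for Bcl2l1, 6.46 kb for Mcl1, 1.18 kb for Bcl2 and 0.318 kb for Pmaip1. On the count scale without length, Bcl2l1 was therefore the runner-up and Pmaip1 the lowest member. The rat RefSeq table lists Mcl1-ps1, Bcl2l1-ps1 and Bax-ps1, copies of similar name, and the sources used here do not give how shared reads were counted, so levels of these 3 members are uncertain.

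When resveratrol was set against control with the quasi-likelihood test of edgeR, no member passed an adjusted p of 0.05. The counts were 0 of 10 members and 0 of the 14213 genes tested (0% called), and the smallest adjusted p among members was 0.178, for Bcl2a1. At an unadjusted p under 0.05 there were 2 members, Bcl2a1 and Bax, both lower in resveratrol, where 19.6% of all genes tested reached that level, 11.7% lower and 7.84% higher. DESeq2 called 0 members and 6.87% of the genes it tested (4.64% lower and 2.23% higher), and limma voom called 0 members. The same 2 members were those whose groups did not overlap in TMM-scaled CPM, counts divided by effective library size, against 26.5% of all genes without overlap and 14.4% lower and 12.2% higher without overlap. The members' share was thus close to the background. Means were lower in resveratrol for 7 of 10 members, with a median log2 fold change of -0.18 against -0.0080 over all genes tested; 51.2% of all genes had a lower mean. Below, values are TMM-scaled CPM in libraries 1, 2 and 3 of each group, and log2 fold changes are resveratrol minus control from edgeR ± limma's moderated standard error (n = 3 per group).

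**Figure D1:**
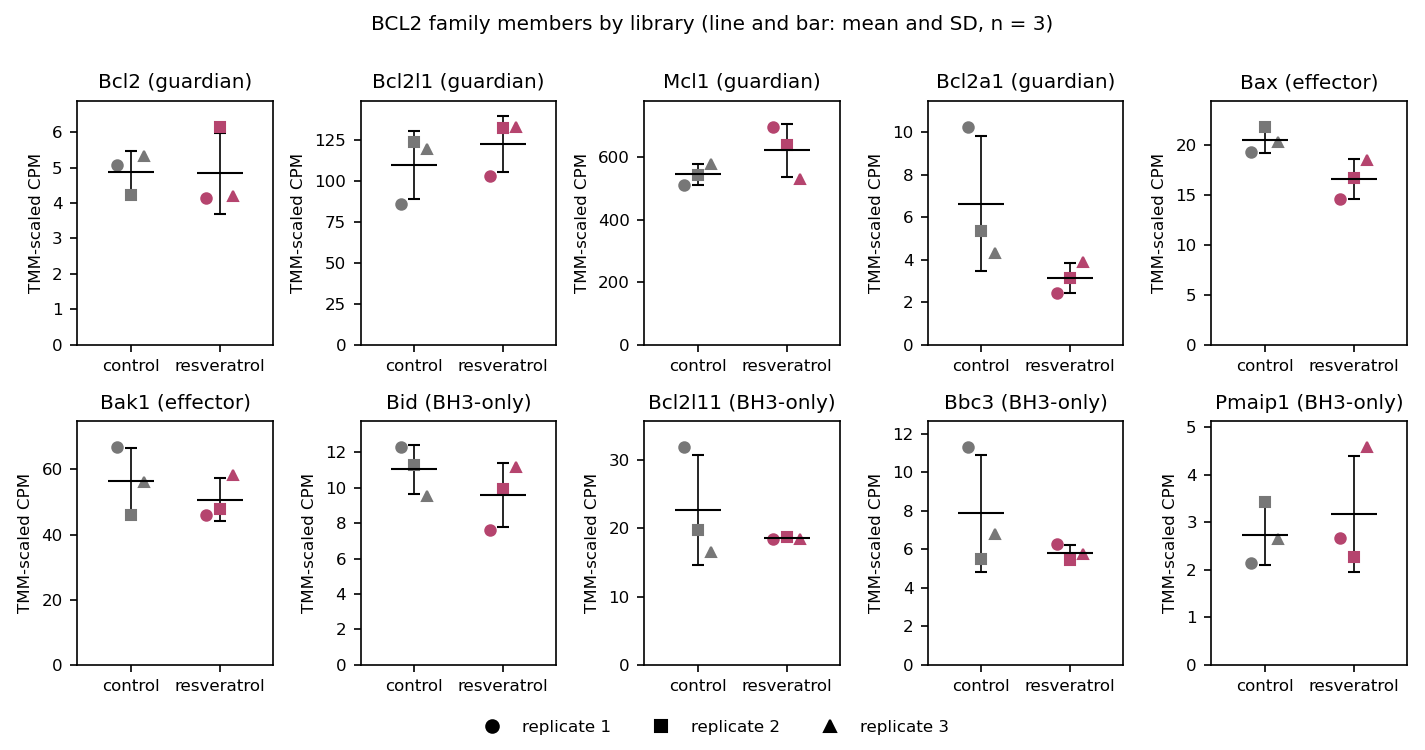
TMM-scaled CPM (y axis, from 0, a scale per gene) of the 10 members in control and resveratrol libraries; symbols mark the replicate, the line and bars the mean and SD (n = 3). Only Bcl2a1 and Bax show no overlap between the groups, and control replicate 1 stands above the other libraries for Bcl2l11 (31.8 CPM) and Bbc3 (11.3 CPM).

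Among the guardians, Bcl2a1, an NF-kB-inducible gene of leukocytes, was at 10.2, 5.33 and 4.29 CPM in the control libraries and 2.43, 3.11 and 3.87 CPM under resveratrol. Every control library lay above every resveratrol library, though control 3 and resveratrol 3 were close. The log2 fold change was -1.07 ± 0.34, with an edgeR adjusted p of 0.178 and a DESeq2 adjusted p of 0.0535. It rested on few reads, 89 to 356 counts per library. Control 1 carried much of its size: without it the difference was -0.61 (edgeR adjusted p = 0.295), and without control 3 it was -1.31. DESeq2 called the gene without control 3 (adjusted p = 0.0145), and over all alternatives its adjusted p ran from 0.0145 to 0.381. Descriptions of replicate 1 of both groups end in Sep and the other 4 in Oct, with no stated meaning. The 2 Sep libraries held the highest and the lowest Bcl2a1 value, and in the Oct libraries alone the difference was -0.46 (edgeR adjusted p = 0.381). With all 6 libraries and Sep against Oct as a covariate, the Bcl2a1 difference was -0.99 (edgeR adjusted p = 0.198).

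Leukocyte markers moved with Bcl2a1. All 12 markers of the list were tested, each of the 12 had a lower mean under resveratrol (median difference -0.91 on the log2 scale), 0 passed in edgeR and DESeq2 called 9. The summed level of the list was 427 to 904 CPM in the control libraries and 311 to 468 CPM under resveratrol. The median deviation of the markers from their own means was 0.89, 0.51 and 0.080 (log2) in control 1, 2 and 3 and -0.73, -0.53 and -0.096 in resveratrol 1, 2 and 3, which puts the 6 libraries in the same order as Bcl2a1. Blood vessel markers gave the same order, with median deviations of 0.67, 0.17 and 0.10 in control 1, 2 and 3. In resveratrol 1, 2 and 3 these were -0.54, -0.25 and -0.16, so the order was not particular to leukocyte markers. Relative to Ptprc, the pan-leukocyte gene of CD45, named after its values were seen, Bcl2a1 was at 0.235 to 0.418 in the controls and 0.261 to 0.305 under resveratrol, as ratios of CPM, and here the groups overlapped. Spi1, which encodes PU.1 and was also named after its values were seen, was at 18.2, 14.7 and 10.9 CPM in the control libraries and 5.03, 6.82 and 11.4 CPM under resveratrol. The part of leukocyte number in the Bcl2a1 difference was not tested. In bulk tissue fewer cells of a type and less RNA per cell cannot be told apart.

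**Figure D2:**
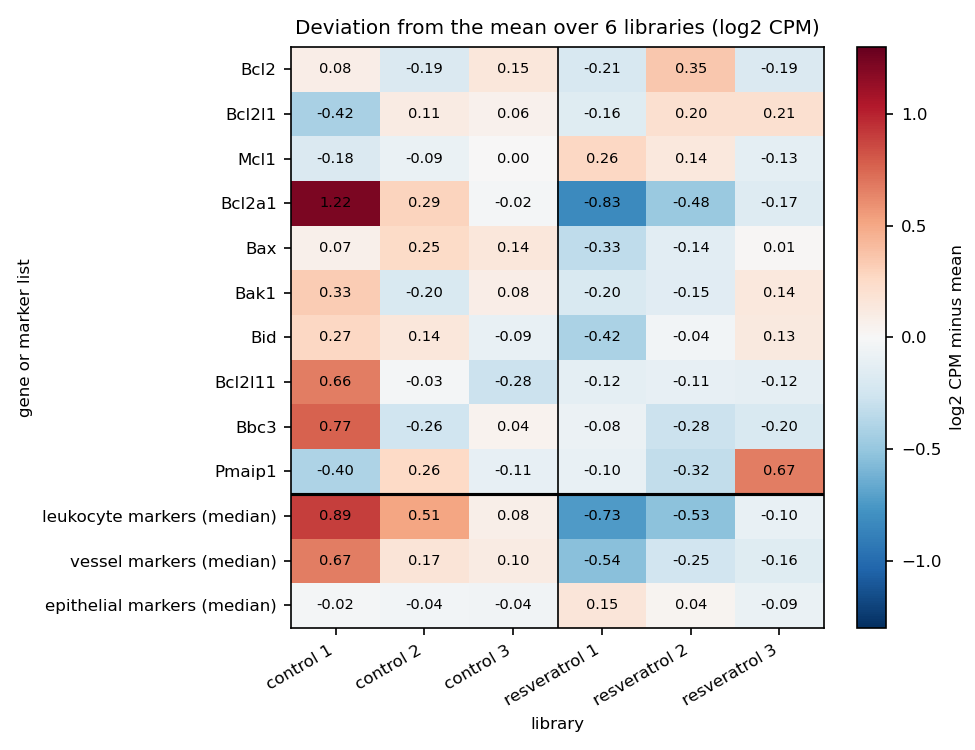
Deviation of log2 CPM from the mean over the 6 libraries (colour and printed value) for each member and, below the line, the median deviation of 3 marker lists; columns are libraries. Bcl2a1 runs from 1.22 in control 1 to -0.83 in resveratrol 1, and the leukocyte markers from 0.89 to -0.73 in the same libraries.

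Mcl1, a short-lived guardian that epithelial and myeloid cells depend on, was at 510, 544 and 580 CPM in the control libraries and 696, 638 and 530 CPM under resveratrol. Resveratrol 1 and 2 lay above all control libraries, while resveratrol 3 lay inside the control range. The log2 fold change was 0.19 ± 0.12 (edgeR adjusted p = 0.400), and limma's 95% interval of the difference ran from -0.087 to 0.45. In the 4 libraries whose description ends in Oct it was 0.059. Bcl2l1 was at 86.0, 124 and 120 CPM in the control libraries and 103, 133 and 133 CPM under resveratrol. Its groups overlapped, with control 1 the lowest library, and the log2 fold change was 0.16 ± 0.16 (edgeR adjusted p = 0.614; limma's 95% interval -0.21 to 0.55). Without control 1 the Bcl2l1 difference was 0.016, but replicate 1 was the lowest Bcl2l1 library in both groups, and in the Oct libraries alone the difference was 0.13 (edgeR adjusted p = 0.460). Bcl2, the founding guardian and a gene of lymphocytes among other cells, was at 5.09, 4.22 and 5.33 CPM in the control libraries and 4.15, 6.15 and 4.21 CPM under resveratrol. The means, 4.88 ± 0.587 and 4.84 ± 1.14 CPM (SD, n = 3), differed by less than either SD, and limma's 95% interval for Bcl2 was -0.52 to 0.46 on the log2 scale. Its sign changed with the setting.

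Bax, the effector that moves from the cytosol to mitochondria, was at 19.3, 21.7 and 20.3 CPM in the control libraries and 14.5, 16.6 and 18.5 CPM under resveratrol. All 3 control libraries lay above all 3 resveratrol libraries, and the gap between control 1 and resveratrol 3 was small. The log2 fold change was -0.30 ± 0.12, with an edgeR adjusted p of 0.230 and a DESeq2 adjusted p of 0.236, so Bax did not pass in either. Leaving out each library in turn kept the difference between -0.38 and -0.21, and in the Oct libraries alone it was -0.26 (edgeR adjusted p = 0.357). Unlike the Bcl2a1 values, those of Bax in control 1 (19.3 CPM) were the lowest of the control group. Bak1, the effector resident in the outer membrane, was at 66.7, 46.1 and 56.1 CPM in the control libraries and 46.1, 47.9 and 58.2 CPM under resveratrol. Its groups overlapped throughout (-0.15 ± 0.15, edgeR adjusted p = 0.610), and without control 1 the difference was -0.0072. Whether Bax and Bak1 differed from each other in their response was not tested.

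The BH3-only members overlapped between the groups. Bcl2l11 was at 31.8, 19.8 and 16.5 CPM in the control libraries and at 18.5, 18.7 and 18.5 CPM under resveratrol. Its resveratrol libraries agreed within an SD of 0.123 CPM, and the control SD of 8.07 CPM came from control 1. The log2 fold change was -0.29 ± 0.22 (edgeR adjusted p = 0.511) with all libraries and 0.037 without control 1. Bbc3, a p53 target, showed the same layout, at 11.3, 5.52 and 6.81 CPM in the control libraries and 6.25, 5.45 and 5.74 CPM under resveratrol. Its difference was -0.44 ± 0.26 (edgeR adjusted p = 0.400) and -0.081 without control 1. For Bcl2l11 the lower mean of the resveratrol group thus rested on a single control library, control 1. For Bbc3 the mean stayed lower without control 1, but most of the size of the difference came from that library. That library was also highest for Bcl2a1 and for the leukocyte and blood vessel markers. The part of these markers in the BH3-only values was not tested.

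Bid, which is activated by caspase cleavage and links death receptors to mitochondria, was at 12.3, 11.3 and 9.54 CPM in the control libraries and 7.62, 9.93 and 11.2 CPM under resveratrol (-0.20 ± 0.18, edgeR adjusted p = 0.556). The lowest Bid library was resveratrol 1, and without it the difference was -0.056. Pmaip1, which binds MCL1 and speeds its loss, was at 2.16, 3.43 and 2.65 CPM in the control libraries and 2.68, 2.28 and 4.58 CPM under resveratrol (0.21 ± 0.31, edgeR adjusted p = 0.749). Resveratrol 3 alone set the higher mean: without it the Pmaip1 difference was -0.14. With 75 to 174 counts per library, Pmaip1 had the widest interval of the BH3-only members, -0.56 to 0.89 on the log2 scale by limma.

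**Figure D3:**
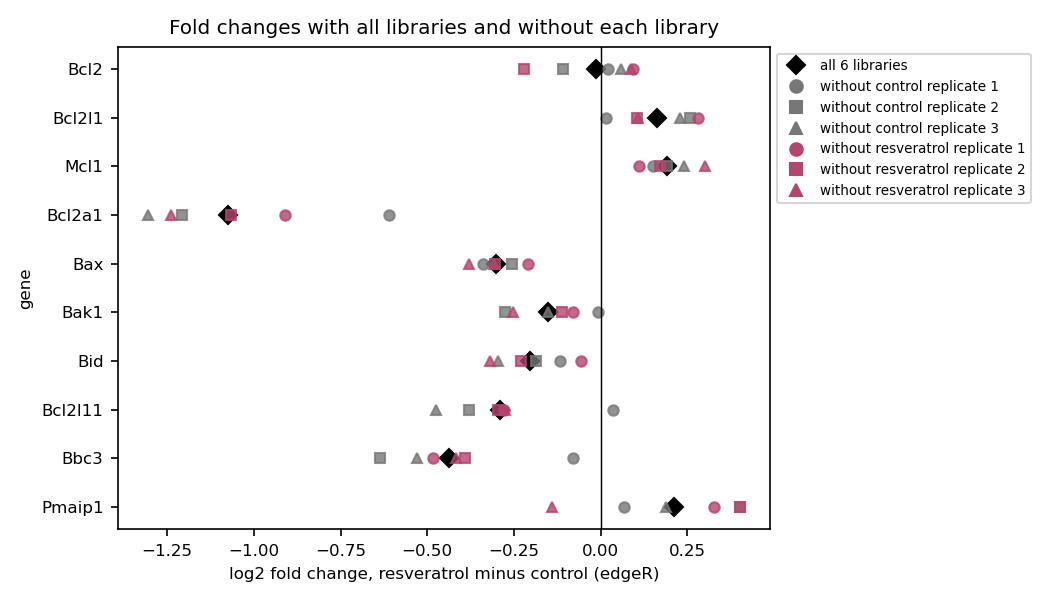
Log2 fold change (x axis, resveratrol minus control, edgeR) of each member with all 6 libraries (diamond) and without each library (symbol for the replicate, grey for control, red for resveratrol). Bax stays between -0.38 and -0.21, whereas Bcl2l11 and Bbc3 move to 0.037 and -0.081 without control replicate 1.

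Guardians were then set against effectors within each library, where the scaling between libraries cancels. The FPKM ratio of Bcl2l1 to Bax was 0.274, 0.351 and 0.362 in the controls and 0.435, 0.489 and 0.442 under resveratrol, so every resveratrol library lay above every control library. As a log2 ratio the means were -1.62 ± 0.221 and -1.14 ± 0.0913 (SD, n = 3), a difference of 0.48. The ratio of Mcl1 to Bax was 3.41, 3.22 and 3.68 in the controls and 6.17, 4.94 and 3.70 under resveratrol. These groups did not overlap either, but resveratrol 3 and control 3 were almost level. For Bcl2 to Bax the ratios were 0.186, 0.137 and 0.186 in the controls and 0.202, 0.261 and 0.161 under resveratrol, and they overlapped. Because Bax itself did not overlap, a higher ratio to it was common: 37.2% of the other genes tested had a CPM ratio to Bax (pseudocount 0.1) that was higher in resveratrol without overlap, and 3.74% one that was lower. The ratios of Bcl2l1 and Mcl1 are therefore not particular to these guardians.

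Summed FPKM of the 4 guardians was 103.4, 104.0 and 108.7 in the controls and 120.1, 119.3 and 103.6 under resveratrol, and Mcl1 made up 75.7% to 88.1% of it. The summed effectors (Bax and Bak1 alone) were at 49.6, 44.5 and 46.8 FPKM in control and 35.4, 39.7 and 46.8 FPKM in resveratrol. The ratio of these sums was 2.08 to 2.34 in the controls and 2.21 to 3.40 under resveratrol and overlapped, again with resveratrol 3 among the controls. No p is given for such sums, and 3 against 3 libraries could not reach an exact permutation p below 0.1.

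**Figure D4:**
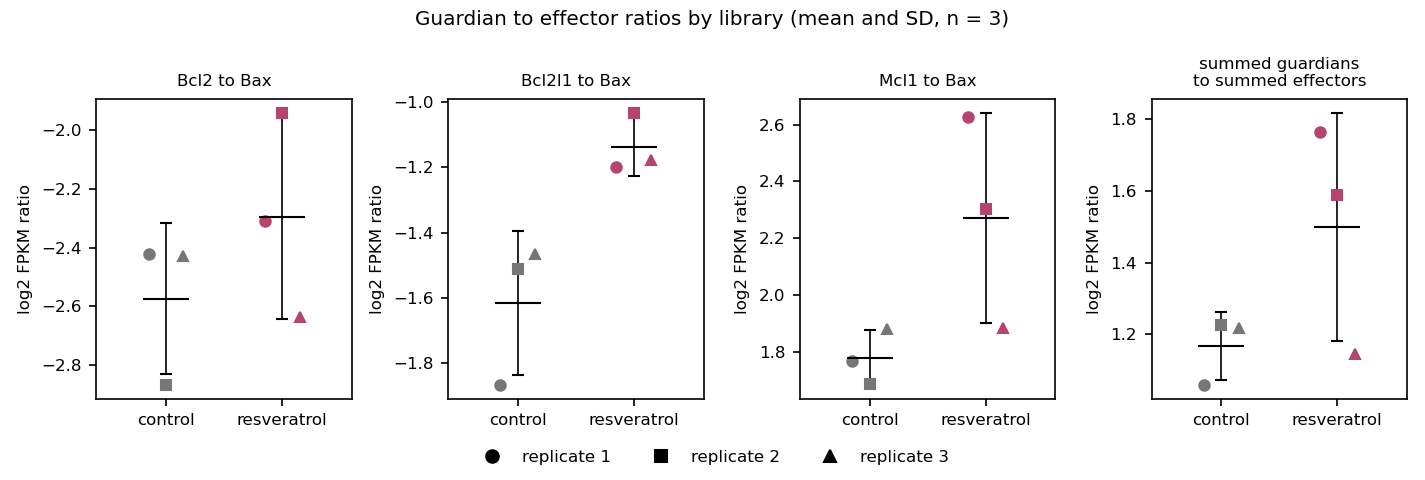
Log2 FPKM ratio (y axis, a scale per panel) of 3 guardians to Bax and of summed guardians to summed effectors in each library; symbols mark the replicate, the line and bars the mean and SD (n = 3). The resveratrol libraries lie above all controls for Bcl2l1 and Mcl1 and overlap with them for Bcl2 and for the sums.

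Of 13 further family genes 12 were analysed here, and 0 passed in edgeR or DESeq2 (median log2 fold change -0.22; 8 with lower means). Over all 6 libraries Bok, an effector-like relative, had the highest mean CPM of these. It was at 169 ± 50.4 CPM in the control libraries and 169 ± 24.6 CPM under resveratrol. In FPKM it was at 118 ± 35.2 and 119 ± 19.5, against 83.8 ± 5.52 and 96.5 ± 11.1 for Mcl1. Only in resveratrol 1 was Bok (96.3 FPKM) below Mcl1 (105.8 FPKM). Bok is not part of the summed effectors above. Bnip3l, a receptor for mitophagy, was at 172 ± 27.2 and 147 ± 10.1 CPM, and its relative Bnip3, a hypoxia-induced gene, at 24.1 ± 16.9 and 12.5 ± 3.07 CPM. Bik, a BH3-only gene, had the smallest p of the group: it was at 3.07 to 4.66 CPM in the control libraries and 1.88 to 2.57 CPM under resveratrol (-0.76 ± 0.23, edgeR adjusted p = 0.170, DESeq2 adjusted p = 0.0738) and did not overlap. Bcl2l12 was also lower without overlap, as were 14.4% of all genes tested.

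**Figure D5:**
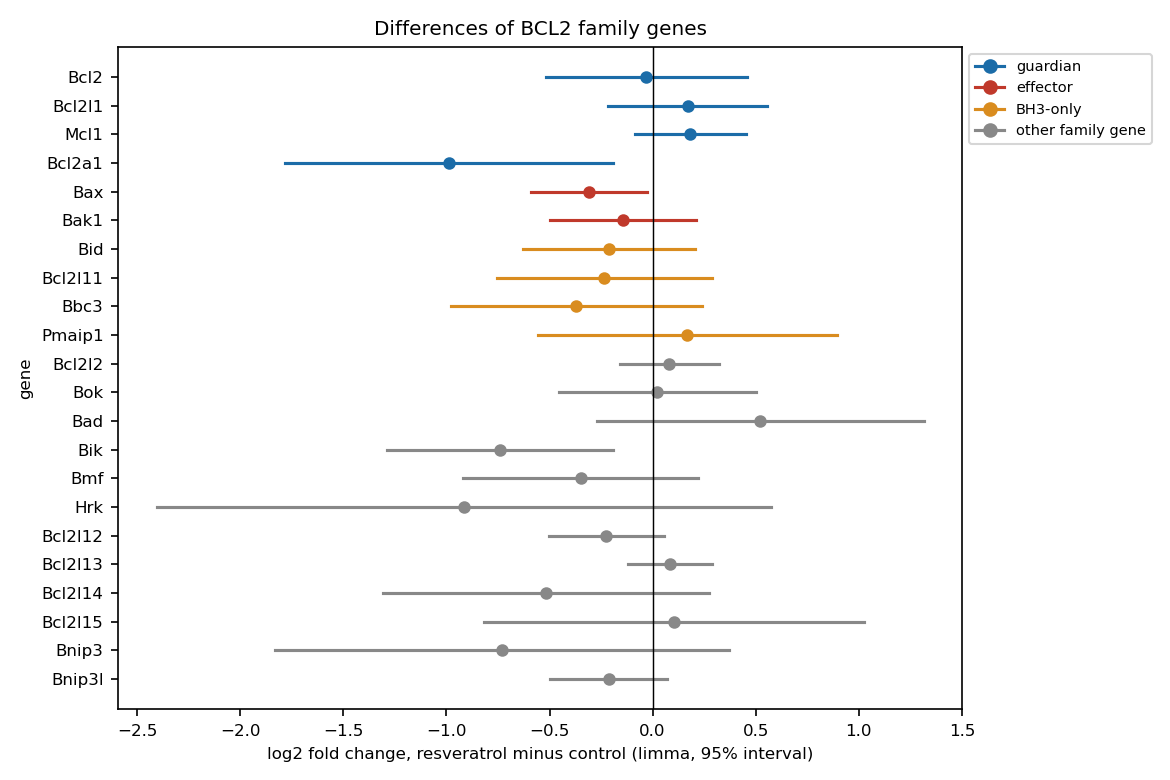
Log2 fold change (x axis, resveratrol minus control) with limma's 95% interval for the 10 members, coloured by class, and for 12 other family genes in grey. Among members, the intervals of Bcl2a1 and Bax lie below 0, before any adjustment for the number of genes, and those of the other 8 include 0.

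Downstream of the family, the 8 apoptosome and caspase genes had a median log2 fold change of -0.068, with 0 passing in edgeR or DESeq2. Apaf1, the apoptosome scaffold, was at 46.9, 44.0 and 46.3 CPM in the control libraries and 39.2, 38.5 and 41.2 CPM under resveratrol (-0.21 ± 0.075, edgeR adjusted p = 0.197) and did not overlap. Cycs, which encodes cytochrome c, was at 57.7 ± 2.83 and 62.2 ± 6.68 CPM, and Casp2 at 46.3 ± 7.73 and 53.5 ± 4.43 CPM. Of 7 IAP genes (inhibitors of apoptosis) and their antagonists, 5 had higher means and edgeR called 0. Birc6, a very large IAP with ubiquitin-conjugating activity, was at 103 ± 4.80 CPM in the control libraries and 129 ± 7.22 CPM under resveratrol and was called by DESeq2 (0.32 ± 0.075, DESeq2 adjusted p = 0.0101, edgeR adjusted p = 0.126). Xiap, the direct caspase inhibitor, was at 89.6 ± 3.94 and 97.7 ± 0.528 CPM, while Birc3, an NF-kB target, was at 35.3 ± 7.76 and 24.9 ± 2.87 CPM (-0.51 ± 0.16, edgeR adjusted p = 0.178). Groups did not overlap for Birc6, Xiap and Birc3, against 26.5% of all genes tested without overlap.

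Upstream, the death receptor list had 7 of 8 genes tested and 0 called by either tool (median 0.14). Ripk1, a kinase at the TNF receptor, was at 59.5 ± 5.89 CPM in the control libraries and 72.5 ± 1.88 CPM under resveratrol without overlap, Tnfrsf1a, the receptor, at 190 ± 10.3 and 213 ± 18.7 CPM, Cflar, which blocks caspase 8, at 97.3 ± 18.0 and 87.5 ± 1.58 CPM, and Tnfsf10, the TRAIL ligand, at 1.29 ± 1.21 and 0.401 ± 0.228 CPM. Of 12 genes of p53 and its targets, DESeq2 called 1 in each direction and edgeR 0 (median 0.13). The one called higher was Ccng1, a cyclin, at 190 ± 17.7 and 241 ± 20.7 CPM (0.34 ± 0.099, DESeq2 adjusted p = 0.0371), and the one called lower was Gadd45a, a growth arrest gene, at 56.5 ± 1.25 and 44.4 ± 4.06 CPM (-0.35 ± 0.089, DESeq2 adjusted p = 0.0377). Zmat3 was at 38.0 ± 1.67 and 48.1 ± 5.21 CPM and Perp, a desmosomal protein of epithelia, at 3088 ± 219 and 3261 ± 308 CPM. Like Ripk1, the genes Ccng1, Gadd45a and Zmat3 did not overlap between the groups, against 26.5% of all genes tested. The p53 targets among the members, Bax, Bbc3 and Pmaip1, had differences of -0.30, -0.44 and 0.21.

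Among 8 transcription factors that act on BH3-only genes, DESeq2 called 1 and edgeR 0 (median 0.10). Atf4, the factor of the integrated stress response, was at 216, 206 and 218 CPM in the control libraries and 273, 276 and 261 CPM under resveratrol. The groups lay well apart with little spread (0.34 ± 0.066, DESeq2 adjusted p = 0.000385, edgeR adjusted p = 0.109). Tp63, a basal epithelial factor, was at 207 ± 9.60 and 274 ± 74.5 CPM. Its groups did not overlap, but resveratrol 1 (359 CPM) stood far above resveratrol 2 and 3 (224 and 238 CPM). Of genes that govern MCL1 turnover 4 of 5 were tested and 0 called (median 0.087), with Usp9x, a deubiquitinase of MCL1, at 181 ± 6.63 and 203 ± 6.74 CPM, Fbxw7, a ubiquitin ligase receptor, at 12.3 ± 0.866 and 13.8 ± 0.0587 CPM, and Btrc at 17.1 ± 0.706 and 17.3 ± 1.07 CPM. The 6 outer membrane partners had a median of 0.017 with 0 called: Vdac1 and Vdac2, the membrane channels, were at 139 ± 1.87 and 166 ± 9.41 CPM in the control libraries and 142 ± 3.40 and 163 ± 4.32 CPM under resveratrol. Dnm1l, the fission GTPase, was at 64.0 ± 3.09 and 75.3 ± 2.88 CPM without overlap, and Mtch2, a receptor for BID, at 126 ± 2.13 and 133 ± 5.30 CPM. Usp9x and Fbxw7 were likewise higher without overlap, as were 12.2% of all genes tested.

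The tissue label was checked by marker lists. The corneal epithelial keratin gene Krt12 had levels of 34169 ± 1076 and 35071 ± 2934 CPM, and epithelial markers had a median log2 fold change of 0.035 over 6 genes. Vessel markers (6 genes, median -0.74) and neutrophil markers (5 tested of 6, median -0.71) had lower means in resveratrol for every tested gene, as did 6 stromal genes (median -0.23). Summed levels were 347 to 553 and 231 to 291 CPM for vessel markers, and 227 to 594 and 169 to 208 CPM for neutrophil markers, in control and resveratrol. DESeq2 called 3 of the vessel, 1 of the neutrophil and 2 of the stromal genes lower, and edgeR 0. The corneal endothelial list (5 genes, median -0.33) was mixed, with 2 called lower by DESeq2. Iris and melanocyte markers summed to 2.16 to 11.0 CPM and muscle markers to 4.24 to 17.7 CPM, so both were low; Des, the one muscle marker tested, was called lower by DESeq2 (-1.01). The summed epithelial markers, 69747 to 84367 CPM, exceeded those of every other marker list, and the part of vessel, neutrophil and stromal cells in the members' values was not tested.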

How the data were processed

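Per the labels' protocols, corneal RNA was sequenced as paired-end reads of 150 bp. The authors deposited a table of raw counts for 17771 genes, and FPKM for these genes in a table and in single files. According to the submitters' processing notes, mRatBN7.2, R 3.2.0 and DESeq2 were used; what each did is not said, and the sources used here name no aligner, counter, annotation or strand setting. The header of the deposited count table lacks a tab, so its columns were checked against FPKM: within a library, log2(count/FPKM) had an SD across genes, after removal of gene length, of 2.86e-10 or less, against 0.229 or more for mismatched columns. Libraries differed beyond sampling noise in every pair (chi-square divided by its degrees of freedom, 31.4 to 92.7).

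Counts were filtered with filterByExpr, which left 14213 genes (the others held 0.0237% of counts), scaled by TMM and tested with edgeR 4.0.16 (R 4.3.3; quasi-likelihood, 2 groups, without covariates), and p-values were Benjamini-Hochberg adjusted over all genes. Standard errors and 95% intervals are from limma 3.58.1 on log2 CPM (prior count 2); the intervals are not adjusted. DESeq2 1.42.0 was an alternative and gave adjusted p-values for 14666 genes. The fits were tested on simulated data. Members and lists were chosen with earlier results of these data known. Named genes are all members and, from each pathway list, the 2 with the highest mean CPM and the 2 with the smallest p; of the marker lists only a few are named. Other alternatives were other scaling factors and filters, limma voom, a block for replicate number, a covariate for Sep against Oct, limma on log2(FPKM + 1) or log2(FPKM + 0.1), and leaving out each library.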

Additional observations from a re-analysis of the deposited data

How the results depend on the processing

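Bcl2a1 and Pmaip1 rested on 75 to 356 counts per library, and each group had 3 libraries. Over 24 alternatives, 221 of 240 log2 fold changes of members kept their direction and their side of the threshold; Mcl1, Bcl2l1, Bcl2a1, Bax and Bbc3 kept their direction in all 24. The 18 reversals were as follows, and their cause was not tested. Bcl2 (-0.013) became 0.0045 with total counts alone, 0.0029 in DESeq2, 0.12 in the Oct libraries, and 0.023, 0.058, 0.094 and 0.087 without control 1, control 3, resveratrol 1 and resveratrol 3 in edgeR (-0.22 to 0.094 over the 6), and 0.028, 0.077, 0.11 and 0.089 in DESeq2. In the Oct libraries Bak1 became 0.056, Bid 0.022 and Bcl2l11 0.038. Bcl2l11 became 0.037 in edgeR and 0.043 in DESeq2 without control 1 (-0.47 to 0.037 over the 6 edgeR fits), and Pmaip1 -0.14 in both without resveratrol 3 (-0.14 to 0.40).

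The number of genes called was 0 in edgeR, 1007 in DESeq2, 0 to 21 in edgeR without each library and 623, 390, 1041, 530, 642 and 826 in DESeq2 without control 1, 2 and 3 and resveratrol 1, 2 and 3. The number of members called was 0 except in DESeq2 without control 3 and, at an adjusted p of 0.1, in DESeq2, where it was 1 (Bcl2a1), against 7.15% and 10.5% of all genes; the DESeq2 fits without each library and this threshold were added after the data were seen. Members without overlap numbered 2 to 4 without each library; the 4, without control 3, were Bcl2a1, Bax, Bid and Bcl2l11, and 38.8% of all genes did not overlap there (32.2% to 39.1% over the 6), so the rise is no result about the members. With the replicate block edgeR called 0 genes and 0 members, and Bcl2a1 was at -0.99 (adjusted p = 0.270). Same-numbered libraries did not deviate together over all genes (r across genes of -0.023 to -0.0044). This does not settle whether the numbers pair the libraries, since such an r can miss a shared deviation of single genes. For Bcl2l1 the edgeR adjusted p was 0.614 without the block and 0.283 with it.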

Other observations

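Bmf, a BH3-only gene outside the 10 members that was chosen after its values were seen, had 36.3, 25.0 and 20.4 CPM in the control libraries and 26.8, 19.9 and 16.7 CPM under resveratrol. Control 1 was its highest library, as for Bcl2l11, Bbc3, Bcl2a1, Bak1 and Bid. The same library was lowest for Mcl1, Bcl2l1 and Pmaip1, and it was neither for Bcl2 and Bax. This pattern was noticed in these values and was not tested.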
